A study of Mus musculus with 15 samples.

Results

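The complement components that macrophages make themselves were followed through RNA-seq of mouse bone marrow-derived macrophages (BMDMs) under 5 conditions. The 9 genes were chosen by name and not by their counts: *C1qa*, *C1qb* and *C1qc*, *C2*, *C4b*, *C3*, *Cfb*, *Cfp* and *Serping1*. All 9 were among the 51763 genes of the count table, and all 9 passed the filter on low counts that left 16919 genes for testing. *Cfb* had 2 reads and *C4b* 13 reads over the PBS libraries together, so these genes passed the filter through the stimulated groups.

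The cells came from wild-type female C57BL/6NTac mice of 8 to 10 weeks and were grown in medium with macrophage colony-stimulating factor, for 10 days by the labels and for 8 to 9 days by the methods of the study. All conditions lasted 24 h, with 3 libraries each. The control received PBS. The fully reduced form of the nuclear protein HMGB1 (frHMGB1) and its disulfide form (dsHMGB1), which is known to signal through Toll-like receptor 4, were each given at 5 µg/mL. LPS-EK, a bacterial lipopolysaccharide that signals through the same receptor, was given at 1 µg/mL. LPS/IFNγ, the classical M1 stimulus, combined LPS-EK with 20 ng/mL IFNγ, and its LPS concentration is 100 ng/mL in the protocol text and 1 µg/mL in the treatment field of the labels. BMDMs of 5 mice were pooled before seeding, so the 3 libraries of a condition are technical replicates of 1 pool, and p-values measure only the spread between wells and libraries. The 2 HMGB1 forms were made in different laboratories, so redox form and preparation cannot be told apart.

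Complement is a cascade of proteins that tags microbes and dying cells for uptake. The classical route starts when C1q, built from A, B and C chains, binds a surface and the attached proteases C1r and C1s cut C4 and then C2. Both this route and the alternative route, which uses factor B and is held together by properdin, converge on C3, whose fragments coat targets and attract leukocytes. The liver makes most of the complement in blood, whereas macrophages are known as the main source of C1q and as a local source of several other components.

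The libraries held between 40934540 and 80925478 counts. PBS replicate 3 stood apart from the other libraries. Its log2 CPM values correlated with those of the other PBS libraries at Pearson's r = 0.939 and 0.934 across genes, where the first and second PBS libraries gave 0.993, and processed pseudogenes took 1.49% of its counts against 0.481% to 0.833% in the 14 other libraries. Calls, medians and levels that rest on it are therefore also given without it. All 7 macrophage markers were expressed. Their summed level was 19060 to 19830 CPM (counts scaled to library size) in PBS and 20940 to 21390 in frHMGB1. It was 18860 to 20020 with dsHMGB1, 18540 to 19310 in LPS and 16600 to 17070 in LPS/IFNγ. *Lyz2* made up most of it, with means from 11730 to 15970 CPM. Single markers did not move together: from PBS to LPS/IFNγ mean *Csf1r* went from 2139 to 1568 and *Mertk* from 63.5 to 502. Of the other lists, the summed level of 7 fibroblast markers, of which 6 passed the filter and none was at 0 throughout, was 108 to 219 CPM in PBS and 195 to 198 in frHMGB1, and 220 to 271 with dsHMGB1, 284 to 299 in LPS and 290 to 291 in LPS/IFNγ. That of 3 endothelial markers, 2 past the filter, was 9.53 to 22.7 CPM in PBS, 18.02 to 18.9 in frHMGB1, then 64.5 to 82.3 with dsHMGB1, 75.8 to 82.2 in LPS and 123 to 132 in LPS/IFNγ, nearly all of it *Kdr*. That of 5 dendritic cell markers, 3 past the filter, was at most 4.27 CPM in PBS, frHMGB1 and dsHMGB1 and was 9.74 to 10.7 in LPS and 17.4 to 19.1 in LPS/IFNγ. Of these, *Xcr1* and *Zbtb46* rose, to means of 8.28 and 8.86 CPM in LPS/IFNγ from 1.40 and 0.254 in PBS. *Clec9a* went the other way, from 2.06 in PBS to 0.170 with dsHMGB1, 0.201 in LPS and 1.16 in LPS/IFNγ. *Flt3* and *Siglech* had 6 and 2 counts in all. Of 8 neutrophil markers 2 passed the filter and 3 were at 0 throughout, with a sum of 1.59 to 5.77 CPM, while none of 6 lymphocyte markers and none of 3 hepatocyte markers passed. The hepatocyte marker *Ttr* was at 0 in every library and *Alb* had 4 counts in all.

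The 9 genes lie on the minus strand of 4 chromosomes of GRCm38. The 3 C1q genes form a cluster of 18675 bp at chr4:136880129-136898803, in the order *C1qb*, *C1qc*, *C1qa*. *C4b*, *Cfb* and *C2* lie within 169886 bp of chr17:34728380-34898265, in the class III region of the major histocompatibility complex, and *Cfb* and *C2* are 85 bp apart. *C3* lies elsewhere on the same chromosome at chr17:57203970-57228136, *Cfp* at chrX:20925454-20931555 and *Serping1* at chr2:84765387-84775444. The readthrough gene *Gm20547* covers 79.5% of the exon length of *Cfb* and 42.8% of that of *C2* on the same strand and was listed at 0 counts in all 15 libraries. How reads in shared exons were assigned is not given in the sources used here, so the counts of *Cfb* and *C2* are uncertain. *C4b* has a near-identical copy, *C4a*, and reads may be split between them.

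RefSeq promoter sequences of GRCm38.p6 were at hand for 4 of the 9 genes, *C1qb*, *C1qc*, *C3* and *Cfp*. Shown are the 250 bases upstream of the start of *C3*, the gene with the steepest called rise from a measurable base (chr17:57228137-57228386), and of *C1qb* (chr4:136886201-136886450) and *Cfp* (chrX:20931556-20931805), which were highly expressed without stimulation. All are given 5′ to 3′ on the minus strand, with matches to the motifs searched in capitals.
C3: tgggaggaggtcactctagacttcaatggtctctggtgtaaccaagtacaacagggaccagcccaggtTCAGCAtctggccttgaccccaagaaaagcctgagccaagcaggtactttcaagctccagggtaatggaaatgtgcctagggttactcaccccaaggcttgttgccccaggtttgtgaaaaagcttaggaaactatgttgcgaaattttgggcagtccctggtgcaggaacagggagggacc
C1qb: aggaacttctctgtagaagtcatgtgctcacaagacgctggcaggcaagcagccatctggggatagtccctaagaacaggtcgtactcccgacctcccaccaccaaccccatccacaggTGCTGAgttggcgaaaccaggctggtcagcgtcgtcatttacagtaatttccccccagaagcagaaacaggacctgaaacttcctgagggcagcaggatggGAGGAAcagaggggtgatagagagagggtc
Cfp: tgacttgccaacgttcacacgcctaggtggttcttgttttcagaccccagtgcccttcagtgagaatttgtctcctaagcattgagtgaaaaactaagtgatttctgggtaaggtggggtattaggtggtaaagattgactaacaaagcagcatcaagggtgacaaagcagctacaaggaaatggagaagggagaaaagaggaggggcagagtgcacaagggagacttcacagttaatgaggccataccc

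The capitals in *C3* mark TCAGCA, the MAF core TGCTGA read on the other strand, 182 to 177 bases before the start. Those in *C1qb* mark the same MAF core in the gene's own direction, 131 to 126 bases before the start, and the PU.1 core GAGGAA 30 to 25 bases before it. PU.1 and MAF factors are known regulators of macrophage genes. *Cfp* held no match. Neither the γ-activated sequence TTCNNNGAA nor the core of the interferon-stimulated response element was in any of the 4 windows, and the kB consensus, a binding pattern of NF-κB, was found only in that of *C1qc*. It lay 41 to 32 bases before the start, within the 151 bases of this window that GENCODE places inside the gene. The *C1qc* window also held the PU.1 core on the other strand, 193 to 188 bases before the start. Both strands were searched and no 2 matches overlapped. Over 32851 promoters of this length, TTCNNNGAA was found in 7.02%, the interferon-stimulated response core in 2.98%, the kB consensus in 3.90%, GAGGAA in 23.3% and TGCTGA in 16.1%, so single matches are frequent and are given as a description only.

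The response of the 9 genes to the stimulations was led by *C3*, *Cfb*, *Serping1* and *C4b*. *Cfb* and *C4b* passed the filter on low counts through the stimulated groups, so the counts of calls below are not independent of that filter. For the C1q chains, *C2* and *Cfp* each stimulated group overlapped with PBS, where replicate 3 was the highest library. Without that library, edgeR called each C1q chain higher after each stimulation. With all libraries, 1 of the 9 genes was called higher than in PBS after frHMGB1 (1.31% of all genes tested were called higher), 3 after dsHMGB1 (23.3%), 4 after LPS (26.7%) and 4 after LPS/IFNγ (29.0%), by edgeR's quasi-likelihood test with an adjusted p under 0.05. None was called lower, where 5.69%, 24.2%, 36.2% and 31.2% of all genes tested were. Of the 13025 protein-coding genes tested, to which all 9 belong, 188 were called higher and 55 lower after frHMGB1. Without PBS replicate 3, 5, 7, 9 and 9 of the 9 genes were called higher and none lower. Of the 17339 genes then tested, 8.41%, 29.8%, 32.9% and 33.3% were called higher and 9.09%, 29%, 38.3% and 34.4% lower. The total over all genes then rose from 1185 to 3035 after frHMGB1, from 8028 to 10204 after dsHMGB1, from 10636 to 12338 after LPS and from 10198 to 11734 after LPS/IFNγ. The median edgeR log2 fold change of the 9 genes over PBS was -0.001 after frHMGB1, 0.35 after dsHMGB1, 0.53 after LPS and 0.73 after LPS/IFNγ, against 0.003, -0.11, -0.27 and -0.15 for all genes tested. PBS replicate 3 decided these medians: without it they were 0.40, 1.07, 1.07 and 1.23, against 0.001, -0.006, -0.16 and -0.016 for all genes tested. Above the log2 fold change of 2 that the study used as its cut-off stood 1, 2, 4 and 4 of the 9 genes, and 0.609%, 8.43%, 10.9% and 12.1% of all genes tested, and by edgeR the 4 counts of the 9 genes were the same without PBS replicate 3.

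**Figure D1:**
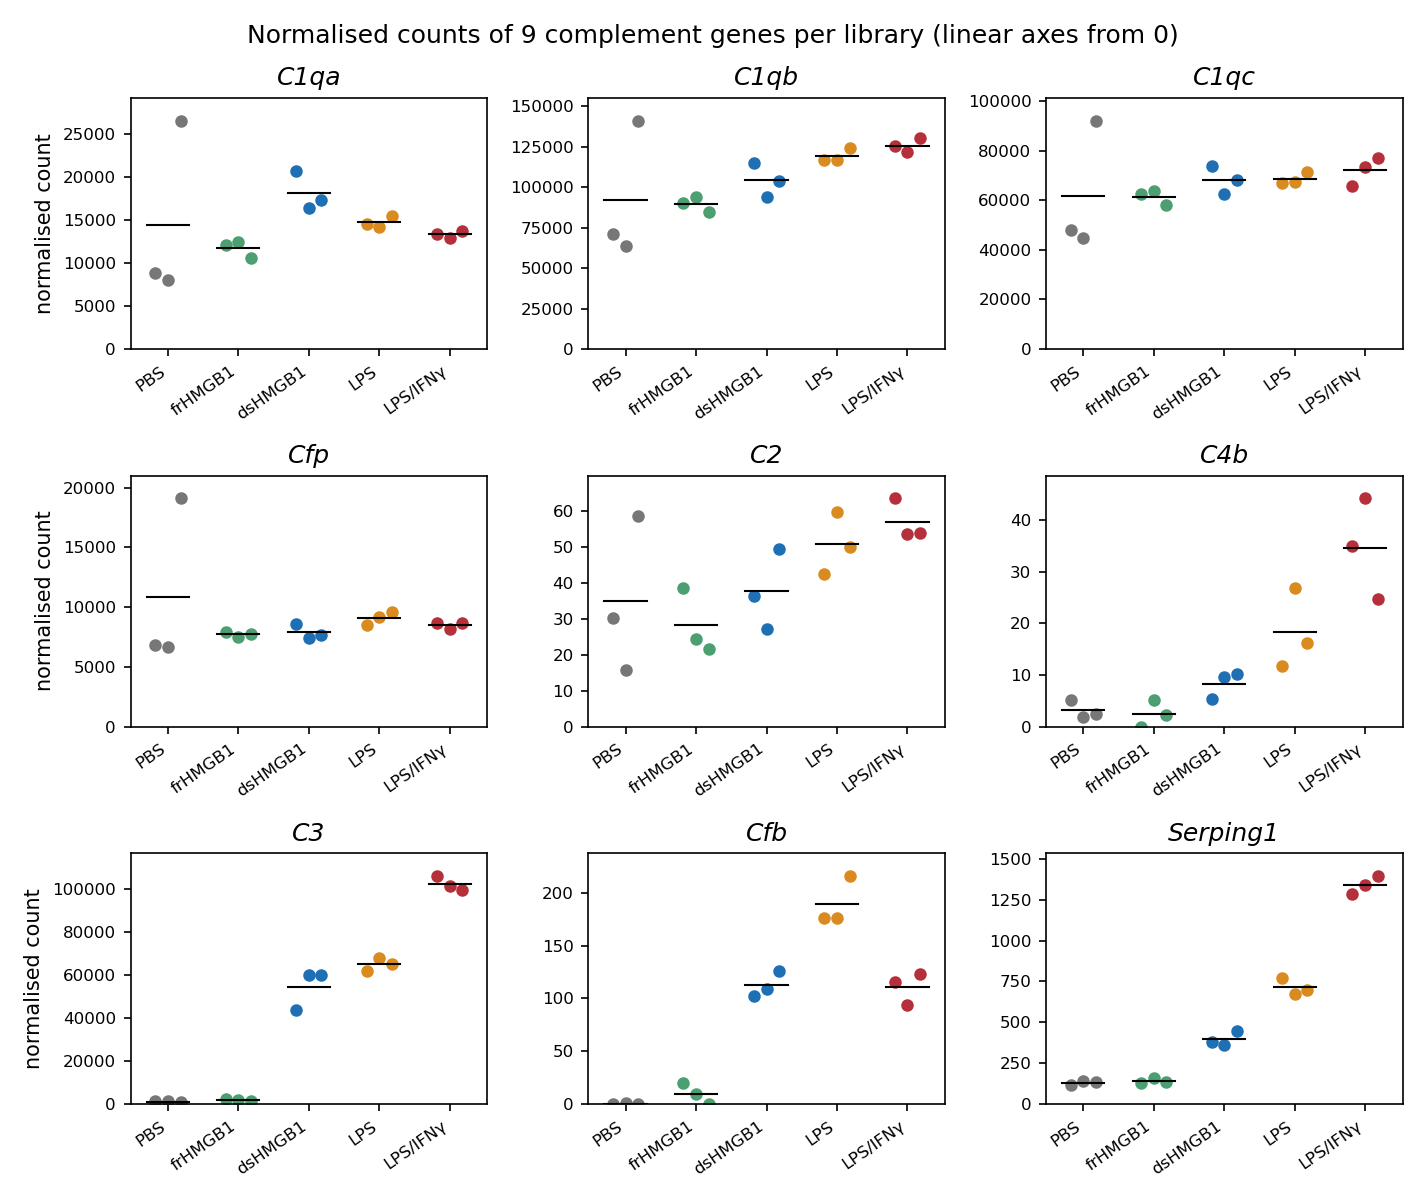
DESeq2-normalized counts of the 9 genes (vertical axis, linear, a scale for each gene) in the 5 conditions; each point is a library and each line the mean of 3. *C3* and *Serping1* stand in separate bands from dsHMGB1 to LPS/IFNγ, whereas in *C1qa*, *C1qb*, *C1qc*, *C2* and *Cfp* the highest PBS point, replicate 3, lies far above the other PBS points.

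The C1q chains, which form the recognition molecule of the classical pathway, were among the most abundant transcripts of the set in every condition. Normalized counts of *C1qb* were 71243, 63596 and 140938 in PBS, 89924, 94112 and 84578 in frHMGB1, then 115017, 94006 and 103989.9 with dsHMGB1, 116889.7, 116663 and 124367 in LPS and 125250.5, 121655 and 130043 in LPS/IFNγ. *C1qa* had 8791, 8082 and 26550.5 in PBS, 12118, 12467 and 10622 in frHMGB1, then 20680.4, 16412 and 17331 with dsHMGB1, 14599, 14161 and 15461 in LPS and 13443, 12918 and 13783 in LPS/IFNγ. *C1qc* had 47836, 44832 and 91997 in PBS and lay between 58258 and 77128 in the 12 stimulated libraries. In all 3 genes PBS replicate 3 was the highest library of the whole series and the other PBS libraries were the lowest, so every stimulated group overlapped with PBS.

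None of the 3 chains was called in any of the comparisons in the fit of all libraries with the low-count filter. The log2 fold change of *C1qa* was 0.33 ± 0.34 (SE, n = 3) after dsHMGB1 and 0.03 ± 0.34 after LPS, and that of *C1qb* was 0.45 ± 0.24 after LPS/IFNγ, with an adjusted p of 0.0727, which became a call without the filter on low counts (0.53, adjusted p = 0.0365). In fits of only the 2 groups compared, *C1qa* was called higher in dsHMGB1 than in frHMGB1 (adjusted p = 0.000387), LPS (adjusted p = 0.00805) and LPS/IFNγ (adjusted p = 0.00125), and lower in LPS/IFNγ than in LPS (adjusted p = 0.00527), and *C1qb* lower in dsHMGB1 than in LPS/IFNγ (adjusted p = 0.0188). Without PBS replicate 3 each chain was called higher after each stimulation by edgeR. Its log2 fold changes for *C1qa* were then 0.47 after frHMGB1 (adjusted p = 0.0011), 1.07 after dsHMGB1 (adjusted p = 9.15e-09), 0.75 after LPS (adjusted p = 6.45e-07) and 0.60 after LPS/IFNγ (adjusted p = 9.82e-06). Those of *C1qb* were 0.40, 0.60, 0.77 and 0.83, and those of *C1qc* 0.40, 0.52, 0.51 and 0.57. Of the direct comparisons between stimulations without this library, *C1qa* was called higher in dsHMGB1 than in frHMGB1 by 0.60 (adjusted p = 2.38e-06), than in LPS by 0.32 (adjusted p = 0.0022) and than in LPS/IFNγ by 0.48 (adjusted p = 4.79e-05). *C1qb* was then called higher in dsHMGB1 than in frHMGB1 by 0.19 (adjusted p = 0.0164) and lower in dsHMGB1 than in LPS, with a log2 fold change of -0.17 (adjusted p = 0.0429), and than in LPS/IFNγ, with -0.23 (adjusted p = 0.00659). These comparisons hold no PBS library, and PBS replicate 3 enters them only through the fit that all groups share.

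The balance between the chains, which assemble in equal numbers in the protein, differed by condition on the scale of levels per kb of exon. The ratio of *C1qa* to *C1qb* was 0.174 to 0.188 in the 3 dsHMGB1 libraries, 0.131 to 0.141 in frHMGB1, 0.127 to 0.131 in LPS and 0.111 to 0.112 in LPS/IFNγ. In PBS it was 0.129 and 0.133 in the first 2 libraries and 0.197 in replicate 3. The dsHMGB1 libraries thus lay above all other libraries except PBS replicate 3, and those of LPS/IFNγ below all others. The ratio of *C1qc* to *C1qb* was 0.368 to 0.397 in PBS, 0.381 to 0.392 in frHMGB1, then 0.361 to 0.374 with dsHMGB1, 0.323 to 0.325 in LPS and 0.295 to 0.340 in LPS/IFNγ. These ratios are a description and were not tested. Together the chains took 0.267% to 0.486% of all counts of a library, the highest share again in PBS replicate 3.

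**Figure D2:**
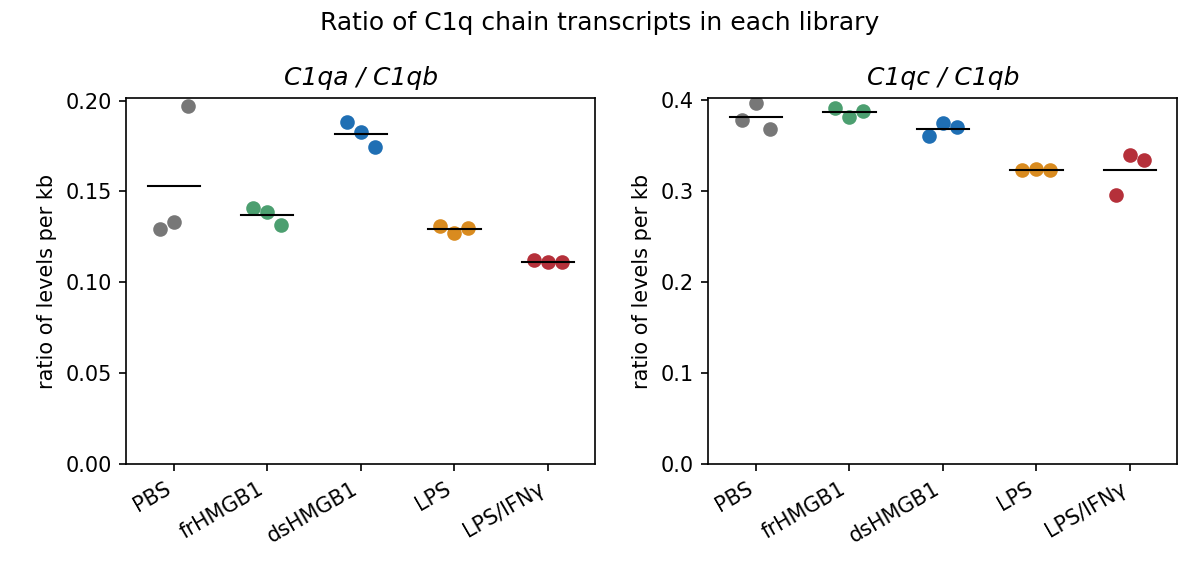
Ratio of the levels per kb of exon (vertical axis, from 0) of *C1qa* to *C1qb* and of *C1qc* to *C1qb* in each library, with the mean of 3 as a line. The dsHMGB1 points of the first panel, 0.174 to 0.188, lie above every other point but PBS replicate 3 at 0.197.

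*C2* and *C4b* encode the substrates of the classical proteases, which together form the C3-cleaving enzyme of that route, and both had low counts. Those of *C2* are uncertain because of the exons it shares with *Gm20547*. *C2* had 30.4, 15.8 and 58.7 normalized counts in PBS, 38.5, 24.5 and 21.6 in frHMGB1, then 36.5, 27.1 and 49.6 with dsHMGB1, 42.7, 59.8 and 49.99 in LPS and 63.6, 53.7 and 53.9 in LPS/IFNγ. All groups overlapped with PBS and no comparison was called, with an adjusted p of 0.117 and a log2 fold change of 0.75 ± 0.42 (SE) for LPS/IFNγ over PBS. Without PBS replicate 3 *C2* was called higher after LPS, by 1.08 (edgeR, adjusted p = 0.0129), and after LPS/IFNγ, by 1.23 (adjusted p = 0.00463).

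*C4b* had 5.17, 1.89 and 2.35 normalized counts in PBS, 0, 5.11 and 2.16 in frHMGB1, then 5.34, 9.54 and 10.1 with dsHMGB1, 11.6, 26.9 and 16.2 in LPS and 34.98, 44.2 and 24.7 in LPS/IFNγ. The dsHMGB1, LPS and LPS/IFNγ libraries all lay above the 3 PBS libraries. It rose after LPS by 2.49 ± 0.66 (log2, SE; adjusted p = 0.00609) and after LPS/IFNγ by 3.42 ± 0.64 (adjusted p = 0.000421), and the difference of 1.38 ± 0.67 after dsHMGB1 was not called (adjusted p = 0.113). In reads over the 3 libraries together, 13 in PBS stood against 31, 38 and 102, which gives ratios of 2.58 (95% interval 1.31 to 5.38), 5.48 (2.86 to 11.2) and 10.5 (5.85 to 20.3) after scaling to depth, where the intervals cover counting error only. Relative to its copy *C4a*, measured per kb, *C4b* stood at 0.274 ± 0.121 (SD, n = 3) in PBS, 0.147 ± 0.162 in frHMGB1, then 0.872 ± 0.378 with dsHMGB1, 0.874 ± 0.271 in LPS and 3.32 ± 1.07 in LPS/IFNγ. This ratio would shift if reads common to both genes were dropped or misassigned.

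*C3*, on which all routes converge, had the largest rise in normalized counts. It had 1357, 1236 and 820.1 in PBS and 2465, 1981 and 1351 in frHMGB1. It had 43557, 60157 and 59995 in dsHMGB1, 61627, 68054 and 65012 in LPS and 106076.5, 101393 and 99277 in LPS/IFNγ. The 9 libraries of the last 3 groups lay far above the 6 of the first 2, whereas frHMGB1 and PBS overlapped by 1 library each. Expressed as a fold over PBS, the rise was 47.9 after dsHMGB1 (log2 5.58 ± 0.23, adjusted p = 1.37e-09), 57.0 after LPS (5.83 ± 0.23, adjusted p = 5.97e-10) and 89.8 after LPS/IFNγ (6.49 ± 0.23, adjusted p = 2.5e-10). After frHMGB1 the log2 fold change of 0.76 ± 0.23 was not called by edgeR (adjusted p = 0.0596). It was called by DESeq2 (adjusted p = 0.0143) and by edgeR without PBS replicate 3 (0.57, adjusted p = 0.0282).

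*C3* took 0.00154% to 0.00319% of the counts of a PBS library and 0.134% to 0.146% of those of an LPS/IFNγ library. In bulk RNA, more cells expressing a gene and more RNA of it per cell cannot be told apart. The summed fibroblast, endothelial and dendritic cell markers were also higher in LPS and LPS/IFNγ than in any PBS library, and the fibroblast and endothelial lists also in dsHMGB1. For the fibroblast list the lowest dsHMGB1 sum, 219.8, was just above the highest PBS sum, 219.2. Its genes moved unevenly: mean *Pdgfrb* went from 3.93 in PBS to 29.0 with dsHMGB1, and *Pdgfra* from 1.91 in PBS to 1.76 in LPS/IFNγ. Within the dendritic cell list, *Clec9a* had a lower mean in LPS and LPS/IFNγ than in PBS. The highest PBS library and the highest LPS/IFNγ library were compared for each list. Sums of the fibroblast, endothelial and dendritic cell lists went from 219 to 291, from 22.7 to 132 and from 4.06 to 19.1 CPM. Their part in the levels of *C3*, *C4b*, *Cfb*, *Serping1* and the C1r and C1s genes described below was not tested.

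Factor B and properdin, encoded by *Cfb* and *Cfp*, serve the alternative pathway and behaved differently. Factor B is the protease-bearing partner of C3b. *Cfb* had 0, 1.26 and 0 normalized counts in PBS, 20.3, 9.20 and 0 in frHMGB1, then 102, 109 and 126 with dsHMGB1, 176, 176 and 216 in LPS and 116, 93.6 and 123 in LPS/IFNγ. It was almost undetected in PBS and at 93.6 or more in each library of the last 3 groups, which did not overlap with PBS. With 2 reads in PBS, the ratio of summed reads scaled to depth was 224 after dsHMGB1 (95% interval 61.7 to 1860), 376 after LPS (103 to 3120) and 222 after LPS/IFNγ (61 to 1840), and the calls had adjusted p-values of 6.95e-06, 1.65e-06 and 4.25e-06. *Cfb* was the 1 gene of the 9 called after frHMGB1 (adjusted p = 0.0327), with a ratio of 19.6 (4.95 to 170). That call rested on 2 libraries with 28 reads in all, frHMGB1 replicate 3 being at 0, and was lost without frHMGB1 replicate 1 (adjusted p = 0.199), frHMGB1 replicate 2 (adjusted p = 0.0751) or PBS replicate 1 (adjusted p = 0.0973), in the fit with replicate number as a block (adjusted p = 0.0685) and among protein-coding genes only (adjusted p = 0.172).

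Properdin, which stabilizes the C3-cleaving enzyme of the alternative pathway, was abundant in all conditions. *Cfp* had 6824, 6682 and 19110.1 normalized counts in PBS and between 7431 and 9574 in the 12 stimulated libraries, so that each stimulated library lay above the first 2 PBS libraries and below replicate 3. With all libraries its log2 fold changes over PBS ran from -0.49 ± 0.31 after frHMGB1 to -0.26 ± 0.31 after LPS, and none was called. Without PBS replicate 3 they turned positive: 0.19 after frHMGB1 (edgeR, adjusted p = 0.0568), 0.20 after dsHMGB1 (adjusted p = 0.0175), 0.37 after LPS (adjusted p = 9.03e-05) and 0.26 after LPS/IFNγ (adjusted p = 0.00207).

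*Serping1* encodes C1 inhibitor, which blocks C1r and C1s and so restrains the classical route, and it followed a graded order. Its normalized counts were 116, 141 and 134 in PBS, 126, 159 and 136 in frHMGB1, then 382, 362 and 447 with dsHMGB1, 773, 671 and 695 in LPS and 1287, 1342 and 1396 in LPS/IFNγ. The dsHMGB1, LPS and LPS/IFNγ groups did not overlap with each other or with PBS, while frHMGB1 overlapped with PBS. Over PBS it rose 3.05-fold after dsHMGB1 (log2 1.61 ± 0.14, adjusted p = 3.18e-07), 5.49-fold after LPS (2.46 ± 0.14, adjusted p = 3.75e-09) and 10.3-fold after LPS/IFNγ (3.37 ± 0.14, adjusted p = 1.58e-10). After frHMGB1 the log2 fold change was 0.11 ± 0.15 (adjusted p = 0.696).

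**Figure D3:**
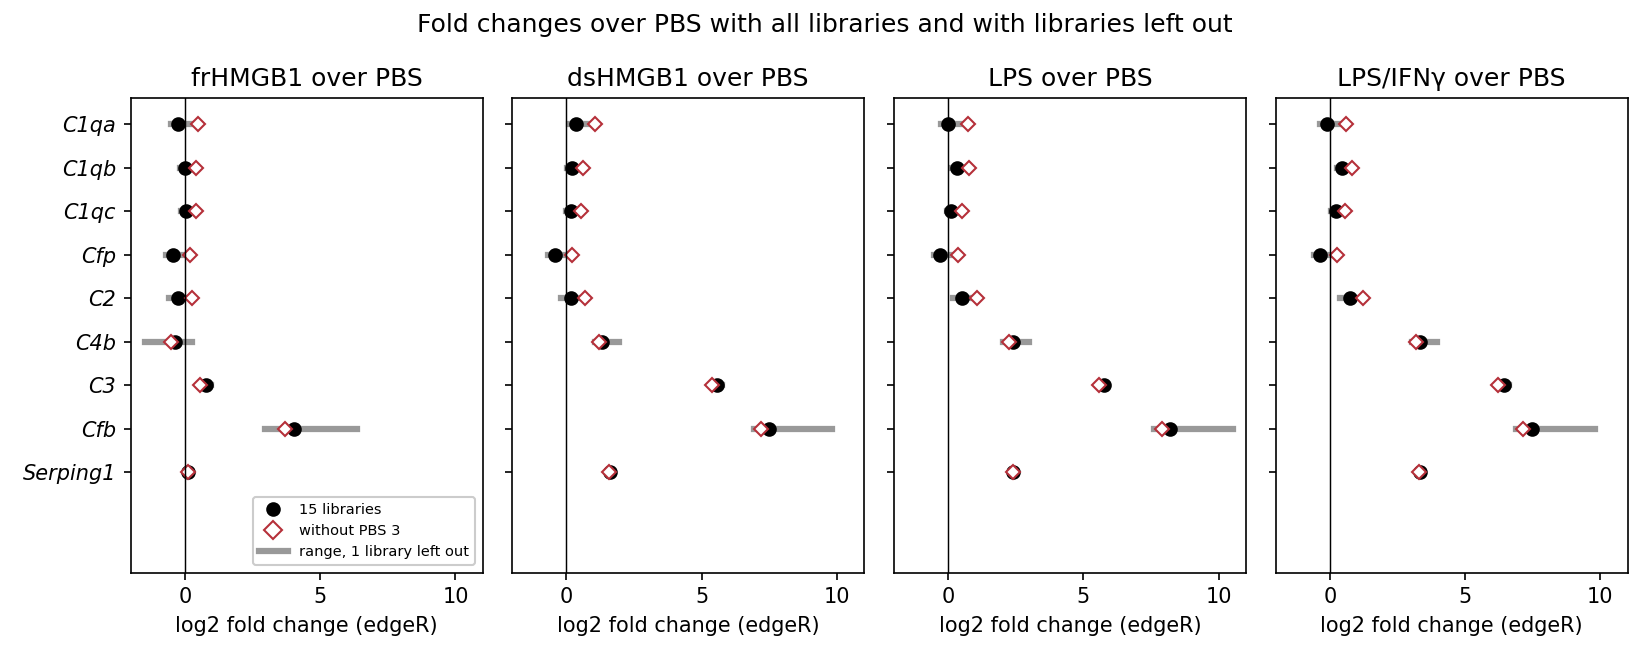
Log2 fold change over PBS (horizontal axis, edgeR) of the 9 genes after each stimulation, with all 15 libraries (filled), without PBS replicate 3 (open) and as the range over fits that leave out 1 library (bar). *C3* and *Serping1* move little on this axis, although *C3* after frHMGB1 runs from 0.563 to 0.975. *C1qa*, *C1qb*, *C1qc*, *C2* and *Cfp* shift to the right without PBS replicate 3, and the wide bars of *Cfb* and *C4b* go with few PBS reads.

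The 2 HMGB1 forms were compared directly. Between dsHMGB1 and frHMGB1, 3 of the 9 genes were called higher in dsHMGB1 (27.7% of all genes tested) and none lower (23.1%): *C3* by 4.82 ± 0.23 (log2, SE; adjusted p = 4.56e-09), *Cfb* by 3.51 ± 0.45 (adjusted p = 0.000271) and *Serping1* by 1.5 ± 0.14 (adjusted p = 7.78e-07). *C4b* was 1.77 ± 0.76 higher, which edgeR did not call (adjusted p = 0.0655) and DESeq2 did (adjusted p = 0.0472). *Cfp* differed by 0.03 with a 95% interval of -0.58 to 0.65. The count was 5 without PBS replicate 3, with *C1qa* and *C1qb* added, while 35.8% of all genes tested were then called higher and 32.9% lower.

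Against LPS, dsHMGB1 gave lower *Serping1* and no other call in the fit of all libraries. This was 1 of the 9 genes lower, where 10.6% of all genes tested were called lower and 15.8% higher, and its log2 fold change was -0.85 ± 0.13 (adjusted p = 0.000473). *C3* differed by -0.25 with a 95% interval of -0.70 to 0.20 (adjusted p = 0.582), although its LPS libraries all lay above its dsHMGB1 libraries. *Cfb* was at -0.75 (interval -1.46 to -0.04, adjusted p = 0.339) and *C4b* at -1.12 (interval -2.26 to 0.03, adjusted p = 0.228). The interval comes from the standard error of DESeq2 and the p from edgeR, and for *Cfb* they fall on different sides. The *Cfb* libraries of the 2 groups did not overlap, and a fit of only these groups called it lower in dsHMGB1 (-0.70, adjusted p = 0.00608). Leaving out PBS replicate 3 gave *C1qa* called higher in dsHMGB1 than in LPS and *Serping1*, *C1qb* and *Cfp* (-0.17, adjusted p = 0.023) lower, while 25.6% of all genes tested were then called higher and 23.3% lower.

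Against LPS/IFNγ, 3 of the 9 genes were called lower in dsHMGB1 (16.7% of all genes tested) and none higher (16.5%). *Serping1* was lower by a log2 fold change of -1.76 ± 0.13 (adjusted p = 2.85e-07), *C3* of -0.91 ± 0.23 (adjusted p = 0.00724) and *C4b* of -2.05 ± 0.55 (adjusted p = 0.0143). The call for *C4b* was lost without dsHMGB1 replicate 1 (adjusted p = 0.0678) or LPS/IFNγ replicate 2 (adjusted p = 0.0648). *Cfb* did not follow them, at 0.02 with a 95% interval of -0.69 to 0.73. Leaving out PBS replicate 3 gave 1 gene called higher, *C1qa*, and 4 lower, with *C1qb* added, while 27.9% and 25.4% of all genes tested were then called higher and lower.

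The addition of IFNγ to LPS came with a further rise of 2 of the 9 genes (16.3% of all genes tested were called higher, 9.36% lower), although the LPS dose of the 2 conditions may also differ. *Serping1* was higher in LPS/IFNγ than in LPS by 0.91 ± 0.13 (log2, SE; adjusted p = 0.000101) and *C3* by 0.66 ± 0.23 (adjusted p = 0.0356). The 3 LPS/IFNγ libraries lay above the 3 LPS libraries in both genes. The call for *C3* was lost in 7 of 15 fits that left out a library, namely any LPS library, any LPS/IFNγ library or frHMGB1 replicate 2, with adjusted p-values up to 0.134. *C4b* was 0.93 ± 0.54 higher (adjusted p = 0.243). The log2 fold change of *Cfb* was -0.77 ± 0.36 (adjusted p = 0.313), with LPS libraries from 176 to 216 normalized counts and LPS/IFNγ libraries from 93.6 to 123. In a fit of only these 2 groups the difference in *Cfb* was called (adjusted p = 0.000568).

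Levels of the 9 genes were compared with each other as CPM per kb of exon. In PBS the order of means was *C1qb* (1461 ± 606, SD, n = 3), *C1qc* (552 ± 210), *C1qa* (239 ± 162), *Cfp* (108 ± 65.5), *C3* (3.90 ± 1.1), *Serping1* (0.981 ± 0.101), *C2* (0.155 ± 0.0905), *C4b* (0.00971 ± 0.00573) and *Cfb* (0.00267 ± 0.00463). The libraries of *C1qc* and *C1qa*, of *C1qa* and *Cfp* and of *C4b* and *Cfb* overlapped there, and all other neighbours were separate. Without PBS replicate 3 the order of means was the same, the first 2 of these overlaps were gone, and the means were 1113 for *C1qb*, 431 for *C1qc*, 146 for *C1qa*, 69.8 for *Cfp*, 4.53 for *C3*, 0.107 for *C2* and 0.00401 for *Cfb*. In LPS/IFNγ *C3*, at 342 ± 10.4, stood behind *C1qb* (1989 ± 63.5) and *C1qc* (643 ± 54.4) but ahead of *C1qa* (222 ± 6.64), and no neighbours overlapped. In dsHMGB1 and LPS *C3*, at 185 ± 32.6 and 212 ± 10.1, stood next below *C1qa* at 304 ± 37.0 and 238 ± 9.95, again with no overlap between neighbours. *Serping1* reached 9.94 ± 0.436 in LPS/IFNγ. *Cfb* reached 1.12 ± 0.133 in LPS, passing *C2* at 0.220 ± 0.0369. The readthrough gene *Gm20547* shares 79.5% of the exon length of *Cfb* and 42.8% of that of *C2*. The levels of both genes, and so their place in the order, are therefore uncertain. The ratio of *C3* to *C1qb* was 0.00403, 0.00411 and, in replicate 3, 0.00123 in PBS, 0.00454 ± 0.00121 in frHMGB1, then 0.113 ± 0.0289 with dsHMGB1, 0.115 ± 0.00714 in LPS and 0.172 ± 0.00949 in LPS/IFNγ.

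**Figure D4:**
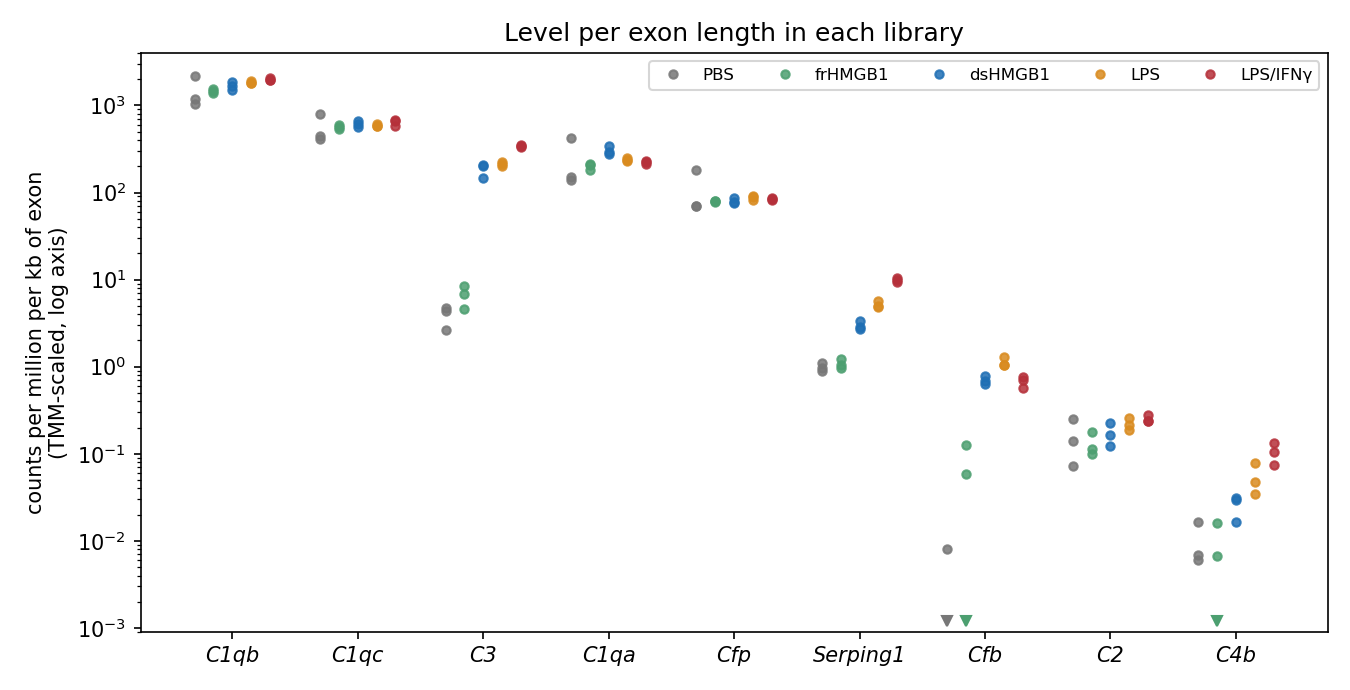
Level of each gene in each library in CPM per kb of exon, TMM-scaled, on a log axis, with genes ordered from high to low and conditions by colour. Triangles at the lower edge mark libraries with 0 counts, which are 2 overlying PBS libraries and 1 frHMGB1 library for *Cfb* and 1 frHMGB1 library for *C4b*.

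The other genes of the complement system were followed as a fixed list of 51, of which 29 passed the filter on low counts. Over PBS, 2 of the 29 were called higher and none lower after frHMGB1, 5 higher and 7 lower after dsHMGB1, 7 higher and 7 lower after LPS, and 8 higher and 8 lower after LPS/IFNγ. Of all genes tested 1.31%, 23.3%, 26.7% and 29.0% were called higher and 5.69%, 24.2%, 36.2% and 31.2% lower, so the shares of the list, at 6.9%, 17.2%, 24.1% and 27.6% higher and 0%, 24.1%, 24.1% and 27.6% lower, were near or below them after dsHMGB1, LPS and LPS/IFNγ. Without PBS replicate 3 the counts of the list, higher and lower, were 2 and 2, 5 and 9, 7 and 9, and 9 and 10. Of all genes tested in that fit 8.41%, 29.8%, 32.9% and 33.3% were called higher and 9.09%, 29%, 38.3% and 34.4% lower. Of 16 initiating components and early proteases 8 passed the filter, and of these 2, 3 and 3 were called higher and 1, 1 and 2 lower after dsHMGB1, LPS and LPS/IFNγ. Of 7 terminal components, which build the membrane attack complex, 1 passed the filter and was not called in any comparison. Of 16 regulators and other genes 9 passed, with 3, 3 and 4 higher and 1, 1 and 1 lower after the same stimulations. Of 12 receptors and binding partners 11 passed, with 0, 1 and 1 higher and 5, 5 and 5 lower.

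Genes of this list that were called and passed a log2 fold change of 2 in either direction over PBS were the proteases and protease-like *C1ra*, *C1s1* and *C1rl*, the regulator *Cd55*, the pattern receptor *Ptx3* and the receptor *C5ar2*. *C1ra*, the C1r protease that C1 inhibitor blocks, had 124 to 153 normalized counts in PBS, 185 to 233 in frHMGB1, then 401 to 459 with dsHMGB1, 1056 to 1231 in LPS and 2326 to 2517 in LPS/IFNγ, and its groups did not overlap. Its log2 fold changes over PBS were 0.56 ± 0.14 (adjusted p = 0.00952), 1.60 ± 0.13 (adjusted p = 1.24e-07), 3.03 ± 0.13 (adjusted p = 1.91e-10) and 4.10 ± 0.13 (adjusted p = 1.27e-11). The call after frHMGB1 was lost without frHMGB1 replicate 1 (adjusted p = 0.056) and in a fit of those 2 groups alone (adjusted p = 0.417). The rise of *C1s1*, the C1s protease, was 1.58 ± 0.46 after dsHMGB1 (adjusted p = 0.0149, and 0.0586 in a fit of those 2 groups alone), 2.37 ± 0.46 after LPS and 3.94 ± 0.45 after LPS/IFNγ. The C1r-like *C1rl* rose by 1.44 ± 0.33 after LPS and 2.73 ± 0.32 after LPS/IFNγ. *C1ra* and *C1s1* have near-identical copies, *C1rb* and *C1s2*, which did not pass the filter, and reads may be split between them.

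*Cd55*, which dismantles the C3-cleaving enzymes on the cell's own surface, rose by 1.72 ± 0.35 after dsHMGB1, 1.83 ± 0.37 after LPS and 2.06 ± 0.35 after LPS/IFNγ. *Ptx3*, a soluble receptor that binds C1q, had 22.1 to 25.2 normalized counts in PBS, 20.4 to 23.7 in frHMGB1, then 477 to 712 with dsHMGB1, 4654 to 5032 in LPS and 3497 to 3676 in LPS/IFNγ. Its rise after dsHMGB1, at 4.6 ± 0.21, was smaller than after LPS, with a log2 fold change of -3.09 ± 0.15 between the 2 (adjusted p = 1.96e-08). *C5ar2*, a receptor for the C5a fragment, had 305 to 641 normalized counts in PBS, 349 to 487 in frHMGB1, then 51.3 to 88.0 with dsHMGB1, 121 to 155 in LPS and 469 to 564 in LPS/IFNγ. It fell by 2.93 on the log2 scale after dsHMGB1 (adjusted p = 1.96e-06) and by 1.89 after LPS (adjusted p = 4.14e-05), was called higher in LPS/IFNγ than in LPS by 1.93 ± 0.28 (adjusted p = 0.00018), and in LPS/IFNγ overlapped with PBS.

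**Figure D5:**
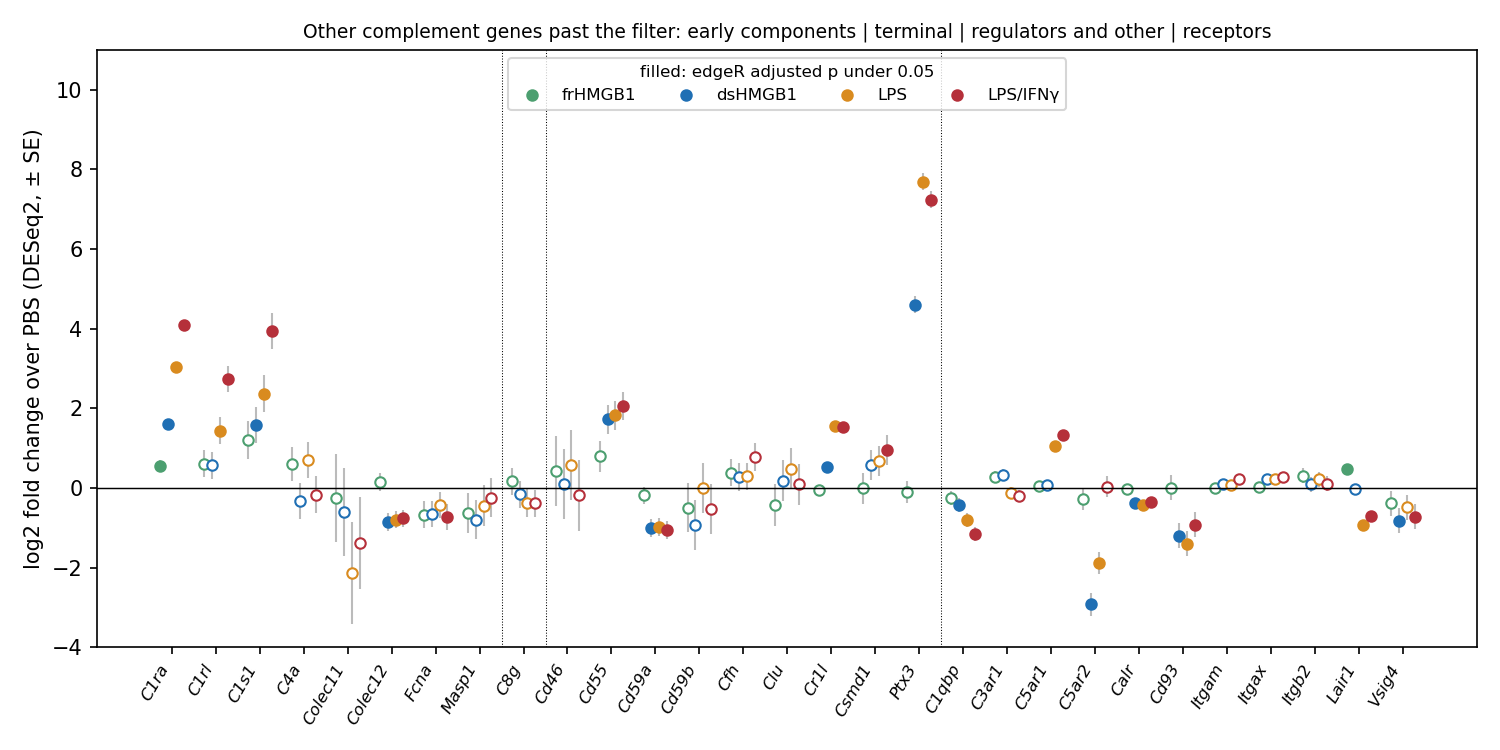
Log2 fold change over PBS (vertical axis, DESeq2, ± SE) of the 29 other complement genes past the filter, by role and condition, filled where the adjusted p of edgeR was under 0.05. *Ptx3*, *C1ra* and *C1s1* stand highest and *C5ar2* after dsHMGB1 lies lowest among the filled points.

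Genes with the most similar fold changes were sought for each of the 9 among protein-coding genes whose mean reached 100 normalized counts, by the root mean square difference over the 4 log2 fold changes over PBS. Since those 4 share the PBS libraries, closeness also carries the spread of PBS, and the choice of genes rests on PBS replicate 3. By edgeR's fold changes, 6 of the 27 nearest genes were the same with and without it, namely 3 for *Cfb*, 2 for *C3* and 1 for *Serping1*. The genes named below come from DESeq2's fold changes with all libraries, and edgeR's list from all libraries shared 20 of the 27. For *C1qc* it shared none. Without PBS replicate 3, edgeR's nearest genes to *C3* were *Ifi203*, *Lpar1* and *Ehd1*. Nearest to *C3* were *Ifi203* (0.22), *Nfkbie* (0.23) and *Nox1* (0.31), with log2 fold changes after LPS/IFNγ of 6.47, 6.52 and 6.04. Nearest to *Serping1* were *Arhgap23* (0.02), *Sco1* (0.087) and *Dgkh* (0.13), and nearest to *C4b* were *Ppp1r15b* (0.23), *Rhob* (0.23) and *Sco1* (0.24). For *Cfb* no gene lay nearer than *Lcn2* at 1.09, followed by *Lrrc4* at 1.1 and *Hcar2* at 1.17. For *C1qa* these were *Btbd9*, *Ubxn8* and *Chchd4*, for *C1qb* *Dnajb12*, *Arglu1* and *Nop2*, for *C1qc* *Mphosph10*, *Rab28* and *Exoc4*, for *C2* *Mettl6*, *Thoc6* and *Anxa6*, and for *Cfp* *Washc3*, *Mrps9* and *Prdx4*, at differences between 0.02 and 0.10.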

How the data were processed

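RNA-seq libraries of 15 BMDM samples, 3 in each of 5 conditions, were grouped by their labels. According to the labels and the methods of the study, the authors made stranded mRNA libraries, processed reads with CASAVA, used STAR for alignment to GRCm38 and DESeq2 to compare conditions, at a log2 fold change cut-off of 2 without p-values, their replicates being technical. The deposited values are raw read counts per gene with no normalization by the authors. Which program and annotation gave the counts is not given in the sources used here. GENCODE M21 held 51661 of the 51763 Ensembl identifiers and lacked 102. The table had 0 columns with no sample. Replicates differed by more than sampling noise in each pair (chi-square per degree of freedom from 4.34 to 814).

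Genes were kept by filterByExpr (about 10 counts in the libraries of a group and 15 in total), scaled by TMM, and tested with edgeR 4.0.16 (quasi-likelihood F test, R 4.3.3), with all 15 libraries in one fit, no covariates and Benjamini-Hochberg adjustment over 16919 genes. Called genes have an adjusted p under 0.05. Normalized counts, log2 fold changes and standard errors came from DESeq2 1.42.0 without shrinkage, and edgeR's fold changes are used where a library was left out. Levels per kb used TMM-scaled CPM and merged exon length. Intervals of read ratios are exact, at 95%, and cover counting error only, since reads amplified by PCR are not independent. The fit was tested on simulated data with known changes. Alternatives were DESeq2, RLE scaling, no filter, a filter of 1 CPM in 3 libraries, protein-coding genes only, the 2 compared groups only, a test of a fold change above 2, the replicate number as a block, and each library left out. All 9 genes are reported. Other complement genes are named when called and past a log2 fold change of 2 over PBS, and 3 nearest genes are given for each of the 9. Genes, lists and alternatives were chosen with earlier results of these data known. Same-numbered libraries of different groups did not deviate together (median correlation -0.0045).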

Additional observations from a re-analysis of the deposited data

How the results depend on the processing

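Over 8 comparisons, the alternatives other than leaving out a library kept the direction and the side of the threshold in 875 fold changes of the 9 genes and of the 6 other complement genes named, made 23 weaker and 12 stronger and turned 21 around. Fold changes of a gene that failed the filter of a setting, as *C4b* did with 1 CPM, are not counted. Those turned around were small. *C1qa* in LPS over PBS went to 0.026 (DESeq2), 0.028 (RLE), 0.089 (no filter), 0.088 (the 2 groups only) and 0.072 (replicate block), and *C1qb* in frHMGB1 over PBS to 0.038 (replicate block). *C1qc* went to -0.008 in dsHMGB1 against LPS under both DESeq2 and RLE. In frHMGB1 over PBS it went to -0.002 (DESeq2), -0.022 (1 CPM), -0.001 (RLE), -0.034 (no filter), -0.024 (2 groups) and -0.062 (protein-coding only). *C1rl* went to 0.069 without the filter in dsHMGB1 against frHMGB1. *C5ar2* in LPS/IFNγ over PBS went to 0.032 (DESeq2), 0.033 (RLE), 0.075 (no filter), 0.074 (2 groups), 0.004 (protein-coding only) and 0.042 (replicate block). The cause of these turns was not tested.

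The number of the 9 genes called in frHMGB1 over PBS was 1, and became 2 under DESeq2 and under RLE. It was 0 among protein-coding genes only, in the replicate block and in the test of a fold change above 2. The fit of 2 groups also gave 0. There *Cfb*, with 28 reads in frHMGB1 and 2 in PBS, did not pass the filter and was not tested. In dsHMGB1 against LPS the number called went from 1 to 3 in the fit of 2 groups and to 0 in the fold test. In dsHMGB1 against LPS/IFNγ it went from 3 to 5 and 1, and in LPS/IFNγ against LPS from 2 to 4 and 0. The fold test asks for more than the other tests by its construction. With the replicate number as a block, no other count of calls among the 9 genes changed from the fit without the block. Of 15 libraries 6 lay nearest to a library of their own number, so the numbers were not read as a pairing.

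With 1 library left out in turn, the counts ran from 0 to 5 for frHMGB1, 3 to 7 for dsHMGB1, 4 to 9 for LPS and 4 to 9 for LPS/IFNγ over PBS, 3 to 5 for dsHMGB1 against frHMGB1, 1 to 4 against LPS, 2 to 5 against LPS/IFNγ, and 1 to 2 for LPS/IFNγ against LPS. The highest of each of the first 7 was without PBS replicate 3. Fold changes that changed sign ranged as follows. After frHMGB1, *C1qa* ran from -0.522 to 0.471, *C1qb* from -0.187 to 0.404, *C1qc* from -0.128 to 0.403, *C2* from -0.583 to 0.284, *C4b* from -1.477 to 0.259 and *Cfp* from -0.677 to 0.191. After dsHMGB1, *C1qc* ran from -0.005 to 0.522, *C2* from -0.192 to 0.67 and *Cfp* from -0.669 to 0.196. After LPS, *C1qa* ran from -0.272 to 0.747, *C1qc* from -0.052 to 0.506 and *Cfp* from -0.527 to 0.368. After LPS/IFNγ, *C1qa* ran from -0.374 to 0.595, *Cfp* from -0.584 to 0.261 and *C5ar2* from -0.299 to 0.209. The median of the 9 genes after frHMGB1 went from -0.001 to 0.403 without PBS replicate 3, an alternative for medians, counts above 2 and nearest genes that was chosen after seeing the data. Between dsHMGB1 and frHMGB1, *Cfp* ran from -0.057 to 0.05, *C1s1* from -0.044 to 0.613 and *C1rl* from -0.453 to 0.176. Between dsHMGB1 and LPS, *C1qc* ran from -0.044 to 0.102 and *Cd55* from -0.228 to 0.115, and between dsHMGB1 and LPS/IFNγ, *C1qc* from -0.108 to 0.004 and *Cfb* from -0.048 to 0.14. Depth limits *Cfb* in PBS and *C4b* in PBS and frHMGB1. Over all genes, 1185 were called in frHMGB1 over PBS, and this became 716 with 1 CPM, 70 among protein-coding genes, 189 in the fit of 2 groups, 634 in the fold test and 3035 without PBS replicate 3. The fit of 2 groups moved 8028 to 4747 in dsHMGB1 over PBS, 4461 to 6985 in dsHMGB1 against LPS, 5621 to 8580 against LPS/IFNγ and 4348 to 8999 in LPS/IFNγ against LPS. Without PBS replicate 3 the last 3 were 8465, 9238 and 8566. The fold test left 2657, 5229 and 4967 for dsHMGB1, LPS and LPS/IFNγ over PBS, 3396 for dsHMGB1 against frHMGB1, 931 against LPS, 1142 against LPS/IFNγ and 1093 for LPS/IFNγ against LPS. Of the other complement genes, the 2 called after frHMGB1 became 0 without the filter, among protein-coding genes only and in the fit of 2 groups.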
